A study of Mus musculus with 12 samples.

Results

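The genes described here belong to the amino acid response driven by the transcription factor ATF4, and were measured in mouse prostate tumours grown in hosts with or without p62. They cover ATF4 and its stress effectors, enzymes that make serine, one-carbon units, asparagine and proline, amino acid transporters, and the synthetases that load amino acids onto tRNA. The list held 38 names, of which 37 are gene symbols and 1, Vldlr-none, matched no gene. A gene counted as measured if a probe set of the array was annotated with its symbol and no other, and where a gene had several, the brightest on average was used. This gave 35 measured genes of the 19937 on the array. Pycr1 had no such probe set and the probe set of Aars is shared with Exosc6, so neither is given here. Mars was found under its current symbol Mars1, and Iars was the 1 member with more than 1 probe set annotated with its symbol alone.

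Tumours came from TRAMP-C2Re3 cells, a line of mouse prostate carcinoma, of which 50000 were placed in the prostates of C57BL6 mice and left for 60 days. The 6 mice of one group were p62 KO and the 6 of the other were wild type, and each tumour was hybridised to 1 array. The same line was injected in both groups, so that host genotype concerns the host cells within a tumour alone. The deleted exons, the age and sex of the mice and any array batch are not given in the sources used here, and the growth protocol also names p62/IL-6 DKO hosts, which were not analysed here. The study's title ties p62 in stromal fibroblasts to mTORC1 signalling and metabolic change, and the comparison asks whether host p62 alters the expression of these genes in the whole tumour. In whole tumours, fewer cells of a type and less RNA per cell cannot be told apart.

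ATF4 is made when the translation factor eIF2alpha is phosphorylated, which happens when cells lack amino acids or when proteins misfold in the endoplasmic reticulum, and mTORC1 also raises its production in growing cells. It binds DNA as a dimer with C/EBP proteins and switches on genes that import and make amino acids and charge tRNA. In tumours this programme feeds serine and glycine into nucleotide synthesis and keeps protein synthesis supplied.

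The composite site bound by ATF4 and C/EBP partners has the core TGATGNAA, and it is shown because it is the sequence through which ATF4 acts on its targets. The genes were listed as ATF4 targets, some of which are known through this site, so its share among them is a description and no independent feature. RefSeq promoters (GRCm38.p6, 250 bases before to 50 bases after a start site) were used for 29 of the genes, in 33 promoters. The core was found on either strand in 9 of these 33 promoters, or 27.3%, against 3.97% of all 32851 promoters of that length. It lay in promoters of 4 synthetases (Gars, Iars, Tars and Yars), of the stress effectors Chac1 and Trib3, of Asns and Pycr1, and of the transporter Slc1a4, and in 0 of 8 genes of the serine and one-carbon group. A match describes the letters in this window and is not evidence of binding, and other motifs were not searched. The 9 sites are printed with 30 bases each, turned so that the core reads 5′ to 3′, with the core in capitals.
Chac1, chr2:119351038-119351067, minus strand: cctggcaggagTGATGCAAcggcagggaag
Trib3, chr2:152344028-152344057, plus strand: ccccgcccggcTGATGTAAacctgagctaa
Asns, chr6:7693214-7693243, minus strand: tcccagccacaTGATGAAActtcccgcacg
Pycr1, chr11:120643833-120643862, minus strand: tgccctgtgtaTGATGCAAtgcacaaggct
Slc1a4, chr11:20332699-20332728, plus strand: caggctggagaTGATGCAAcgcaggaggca
Gars, chr6:55037960-55037989, minus strand: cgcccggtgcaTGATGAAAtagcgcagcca
Iars, chr13:49682126-49682155, minus strand: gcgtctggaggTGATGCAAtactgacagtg
Tars, chr15:11399655-11399684, plus strand: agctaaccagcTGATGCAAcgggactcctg
Yars, chr4:129189895-129189924, plus strand: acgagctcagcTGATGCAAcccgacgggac
Of these 9 cores, 6 read TGATGCAA, 2 read TGATGAAA and 1 reads TGATGTAA. The core began 193 bases before the start site in Chac1, 103 in Pycr1, 30 in Gars, 23 in Asns, 15 in Tars and 4 in Slc1a4. It began within the first transcribed bases in Trib3 (base 15), Iars (base 8) and Yars (base 4).

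Over the 12 tumours 0 of the 35 genes passed the test between host genotypes in either direction (limma, adjusted p under 0.05 over 28192 probe sets, smallest adjusted p = 0.9935). At that threshold 0.00355% of all probe sets were called lower and 0% higher. At an unadjusted p under 0.05, 0 of the 35 genes were found as well, against 2.39% of all probe sets, and the groups overlapped in each of the 35, against 0.145% of all probe sets without overlap. The direction was nevertheless one-sided. The log2 difference, p62 KO minus WT hosts, was below 0 in 31 of the 35 genes with a median of -0.11, against 42.8% of all probe sets and a median of 0.02. This count depended on p62 KO host 2, without which it was 21 of 35, and more so on p62 KO hosts 2 and 3 together, without which it was 15 of 35.

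**Figure D1:**
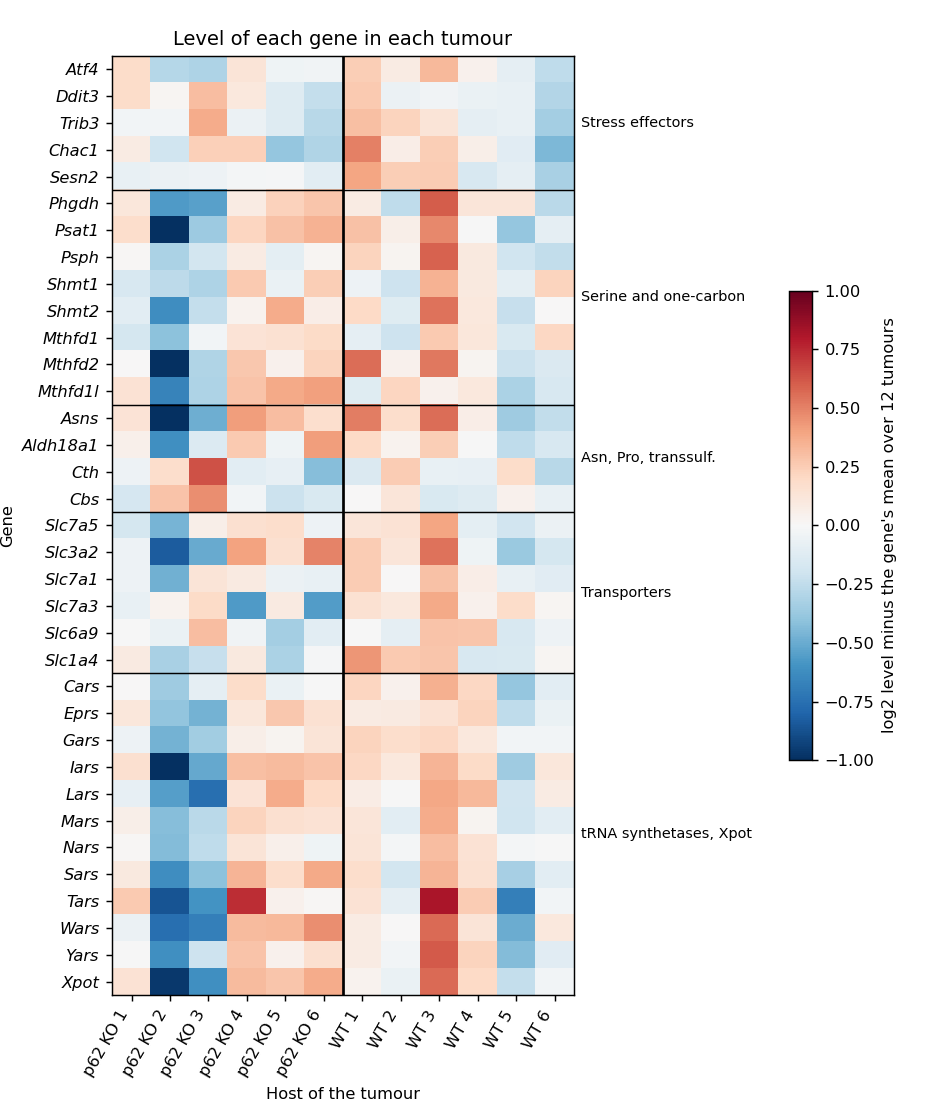
Colour gives the log2 level of each of the 35 genes (rows, by group) in each of the 12 tumours (columns, 6 p62 KO hosts then 6 WT hosts), minus the gene's mean over the 12 tumours; values beyond 1 on either side have the end colour. The columns of p62 KO hosts 2 and 3 are blue for most synthetases and serine genes, and the column of WT host 3 is red.

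**Figure D2:**
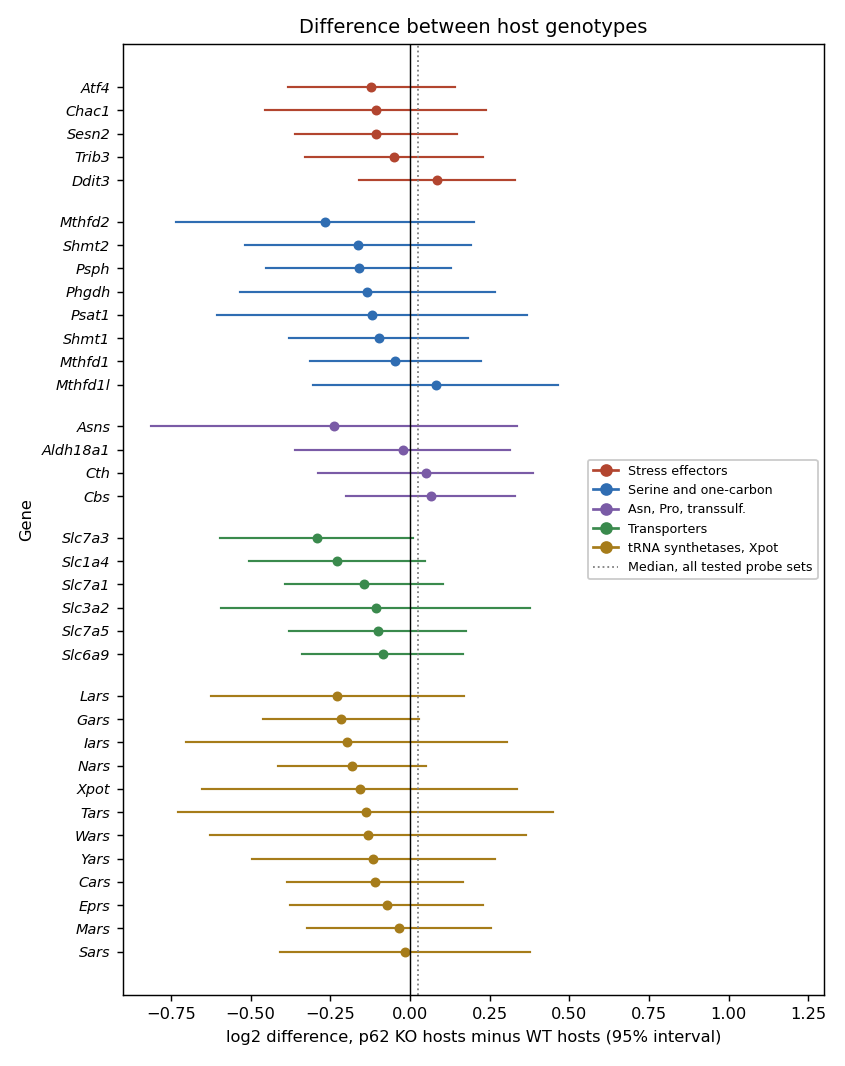
Points give the log2 difference between p62 KO and WT hosts (6 tumours each) for each gene, by group, and bars its 95% interval from limma. Of 35 points, 31 lie left of 0, and each bar includes 0.

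Tumours of p62 KO hosts 2 and 3 stood apart from the rest on the whole array, with interquartile ranges of 2.26 and 2.15 on the log2 scale against 2.47 to 2.95 in the other 10. WT hosts 5 and 2 came next at 2.47 and 2.59. Correlations between arrays lay between 0.935 and 0.991. Sqstm1, the gene of p62, had means of 8.73 ± 0.39 and 8.89 ± 0.23 (SD, n = 6 each) in tumours of p62 KO and WT hosts, which does not check the genotype since the injected cells may supply its RNA. Of prostate epithelial markers, Krt8 lay between 7.76 and 8.65, whereas the secretory gene Pbsn, between 2.81 and 3.18, lay below the arrays' lower quartiles (4.85 to 5.36), and the mean of Epcam was low as well, with values of 4.32 to 5.16. The secretory genes Sbp and Spink1 stood at 6.05 and 5.82 in WT host 4, against 3.07 to 3.66 and 3.21 to 4.21 in the other 11 tumours. Without WT host 4, 30 of the 35 genes were below 0, with a median of -0.12.

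Among the stress effectors, 4 of 5 genes had log2 differences below 0, with a median of -0.11. Atf4 itself had levels from 8.34 to 8.83 with a median of 8.61 in tumours of p62 KO hosts, and from 8.40 to 8.98 with a median of 8.71 in those of WT hosts. The groups overlapped over most of their range, with p62 KO host 3 lowest and WT host 3 highest. Its difference of -0.12 (SE 0.12, 95% interval -0.38 to 0.14) was the largest of the group and did not pass (limma adjusted p = 0.9935). ATF4 is controlled largely at translation, which an array of RNA does not measure.

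Ddit3, which encodes the pro-apoptotic factor CHOP, ranged from 7.29 to 7.83 (median 7.58) in tumours of p62 KO hosts and from 7.23 to 7.79 (median 7.46) in tumours of WT hosts. It was the 1 stress effector with a difference above 0, at 0.09 (SE 0.11), and p62 KO host 3 held its highest value. In the RefSeq table the spans of Ddit3 and Mars1 overlap, and whether either probe set picks up the other gene was not tested. Trib3, a pseudokinase that restrains ATF4 and AKT, ranged from 6.14 to 6.79 (median 6.37) against 6.07 to 6.72 (median 6.44). The difference of -0.05 (SE 0.13) lay well within the spread of either group, and p62 KO host 3 was again the highest tumour.

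Chac1, an enzyme that degrades glutathione, ranged from 7.13 to 7.75 (median 7.45) in tumours of p62 KO hosts and from 7.06 to 8.02 (median 7.57) in tumours of WT hosts. WT hosts 1 and 6 gave the highest and the lowest value, so that the p62 KO tumours fell inside the WT range. Its difference was -0.11 (SE 0.16). Sesn2, an inhibitor of mTORC1 that senses leucine, was tightly grouped in tumours of p62 KO hosts, at 6.31 to 6.40 (median 6.36, SD 0.03). In tumours of WT hosts it spread from 6.08 to 6.80 (median 6.49, SD 0.28), around a difference of -0.11 (SE 0.12). No test of the difference in spread was made.

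In the serine and one-carbon group, 7 of 8 genes had differences below 0, with a median of -0.13. Phgdh, the enzyme that commits glycolytic carbon to serine, ranged from 7.16 to 8.0 (median 7.82) in tumours of p62 KO hosts and from 7.45 to 8.33 (median 7.82) in tumours of WT hosts. The medians were equal to 2 decimals, while p62 KO hosts 2 and 3, at 7.16 and 7.18, pulled the mean difference to -0.13 (SE 0.19). Psat1, the next enzyme of the pathway, ranged from 8.55 to 9.93 (median 9.77) against 9.19 to 10.06 (median 9.61). Its p62 KO median was above the WT median although the mean difference was -0.12 (SE 0.23), because p62 KO host 2 lay at 8.55. Psph, which completes serine synthesis, differed by -0.16 (SE 0.14).

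Shmt2, the mitochondrial enzyme that splits serine into glycine and a one-carbon unit, ranged from 7.30 to 8.30 (median 7.89) in tumours of p62 KO hosts and from 7.69 to 8.47 (median 7.98) in tumours of WT hosts. The difference was -0.16 (SE 0.16), with p62 KO host 2 lowest and WT host 3 highest. Mthfd2, the mitochondrial folate dehydrogenase, gave the largest difference of the group at -0.27 (SE 0.22, 95% interval -0.73 to 0.20). It ranged from 8.86 to 10.18 (median 9.93) against 9.70 to 10.47 (median 9.94), and 5 of the 6 p62 KO tumours lay at 9.61 or above while p62 KO host 2 stood alone at 8.86. The cytosolic enzymes Shmt1 and Mthfd1 differed by -0.10 (SE 0.13) and -0.05 (SE 0.12).

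Mthfd1l, which releases mitochondrial one-carbon units as formate, was the 1 gene of the group with a difference above 0, at 0.08 (SE 0.18). It ranged from 7.94 to 9.02 (median 8.82) in tumours of p62 KO hosts and from 8.29 to 8.82 (median 8.56) in tumours of WT hosts. The p62 KO tumours parted here, with hosts 2 and 3 at 7.94 and 8.29 and the other 4 at 8.75 to 9.02. Without p62 KO hosts 2 and 3 its difference was 0.35 (SE 0.11, unadjusted p = 0.00743), which did not pass after adjustment (limma adjusted p = 0.638). It was 0.34 when WT hosts 2 and 5 were left out too (adjusted p = 0.743). Among the other 7 genes of the group the unadjusted p stayed above 0.05 in both of these fits.

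Of the genes for other amino acids, 4 were measured and 2 had differences below 0, with a median of 0.01. Asns, which makes asparagine and is a standard ATF4 target, ranged from 9.10 to 10.76 (median 10.50) in tumours of p62 KO hosts and from 9.99 to 10.91 (median 10.47) in tumours of WT hosts. The medians differed little, and p62 KO hosts 2 and 3 were the 2 lowest of all 12 tumours at 9.10 and 9.86. Its difference of -0.24 (SE 0.27) had a 95% interval from -0.81 to 0.34, among the widest of the 35. Aldh18a1, the first enzyme from glutamate to proline, differed by -0.02 (SE 0.16).

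The transsulfuration enzymes Cbs and Cth, which turn homocysteine into cysteine, were not low in these 2 tumours. Cbs was highest in p62 KO hosts 3 and 2, at 6.79 and 6.60, against 6.10 to 6.44 in the other 10 tumours, and it differed by 0.06 (SE 0.12). Cth was highest in p62 KO host 3, at 5.91, and differed by 0.05 (SE 0.16). The other tumours, p62 KO host 2 among them at 5.44, lay between 4.84 and 5.52 in Cth, near the lower quartiles of the arrays. All probe sets with mean levels of 5.02 to 6.28, where Cth lies, were raised in these 2 tumours. Their median level minus the own mean was 0.22 in p62 KO host 2 and 0.30 in p62 KO host 3.

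All 6 amino acid transporters had differences below 0, with a median of -0.13. Slc7a5 and Slc3a2 form the exchanger that brings leucine into cells in return for glutamine. Slc7a5 ranged from 9.57 to 10.21 (median 10.03) in tumours of p62 KO hosts and from 9.84 to 10.42 (median 10.06) in tumours of WT hosts, a difference of -0.10 (SE 0.13). Slc3a2 ranged from 9.01 to 10.34 (median 9.90) against 9.47 to 10.39 (median 9.88), a difference of -0.11 (SE 0.23). In both genes p62 KO host 2 was the lowest tumour and WT host 3 the highest.

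The arginine and lysine carriers Slc7a1 and Slc7a3 had different patterns. Slc7a1 ranged from 7.95 to 8.56 (median 8.37) against 8.32 to 8.72 (median 8.46), and its difference of -0.14 (SE 0.12) included p62 KO host 2 far below the rest. Slc7a3 had the largest difference of all 35 genes, at -0.29 (SE 0.14, 95% interval -0.60 to 0.01, unadjusted p = 0.0578, exact two-sided permutation p = 0.0758). It ranged from 4.52 to 5.28 (median 5.06) in tumours of p62 KO hosts and from 5.10 to 5.46 (median 5.21) in tumours of WT hosts, where hosts 4 and 6, both at 4.52, were the low p62 KO tumours. These levels are at or near the lower quartiles of the arrays. Without p62 KO hosts 2 and 3 the difference was -0.42 (unadjusted p = 0.00895, limma adjusted p = 0.638), and without p62 KO host 4 or 6 it was -0.21 each.

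Slc1a4, a carrier of alanine, serine and cysteine, ranged from 7.47 to 7.89 (median 7.67) in tumours of p62 KO hosts and from 7.63 to 8.23 (median 7.93) in tumours of WT hosts. Its difference was -0.23 (SE 0.13), and WT hosts 1, 2 and 3 lay above all 6 p62 KO tumours. It was -0.15 without p62 KO hosts 2 and 3 and did not pass in either fit (limma adjusted p = 0.9935 and 0.745). The glycine carrier Slc6a9 differed by -0.08 (SE 0.12), and by -0.25 without p62 KO hosts 2 and 3 and WT hosts 2 and 5 (unadjusted p = 0.0479, limma adjusted p = 0.977).

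The 12 measured genes of tRNA charging and export all had differences below 0, from -0.23 to -0.02 with a median of -0.14, and 0 passed. Lars, the leucyl synthetase, ranged from 9.75 to 10.87 (median 10.53) in tumours of p62 KO hosts and from 10.31 to 10.89 (median 10.58) in tumours of WT hosts. Its difference of -0.23 (SE 0.18) was the largest of the group, and p62 KO hosts 2 and 3 gave its 2 lowest values. Gars, the glycyl synthetase, ranged from 10.39 to 10.99 (median 10.86) against 10.83 to 11.08 (median 11.01), a difference of -0.22 (SE 0.11, unadjusted p = 0.0781). Its difference was -0.07 without p62 KO hosts 2 and 3. Nars and Iars, for asparagine and isoleucine, differed by -0.18 (SE 0.11) and -0.20 (SE 0.23), and a second probe set of Iars gave -0.27 (SE 0.27).

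Wars, the tryptophanyl synthetase, which interferon also induces, ranged from 6.30 to 7.51 (median 7.18) in tumours of p62 KO hosts and from 6.56 to 7.62 (median 7.15) in tumours of WT hosts. The difference was -0.13 (SE 0.23), with p62 KO hosts 2 and 3 lowest at 6.30 and 6.37. Xpot, which exports tRNA from the nucleus, differed by -0.16 (SE 0.23), Tars by -0.14 (SE 0.27), Yars by -0.11 (SE 0.18) and Cars by -0.11 (SE 0.13). The synthetases Eprs (-0.07, SE 0.14), Mars (-0.03, SE 0.13) and Sars (-0.02, SE 0.18) lay closest to 0. In 9 of the 12 genes p62 KO host 2 was the lowest tumour, and in 9 of the 12 WT host 3 was the highest.

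The level of each group in each tumour was summarised as the median, over its genes, of the log2 level minus the gene's mean over the 12 tumours. For the synthetase group it was -0.58 in p62 KO host 2, -0.44 in p62 KO host 3 and -0.29 in WT host 5, between 0.04 and 0.26 in the other 4 p62 KO tumours, and between -0.03 and 0.36 in the other 5 WT tumours. The serine group had the same 2 lowest tumours, at -0.59 and -0.30. Stress effectors did not share this order, since p62 KO host 3 had a value of 0.24 there, exceeded by WT hosts 1 and 3 at 0.30 and 0.25, and WT host 6 was lowest at -0.32. Transporters lay at -0.39 in p62 KO host 2 and at 0.09 in p62 KO host 3.

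**Figure D3:**
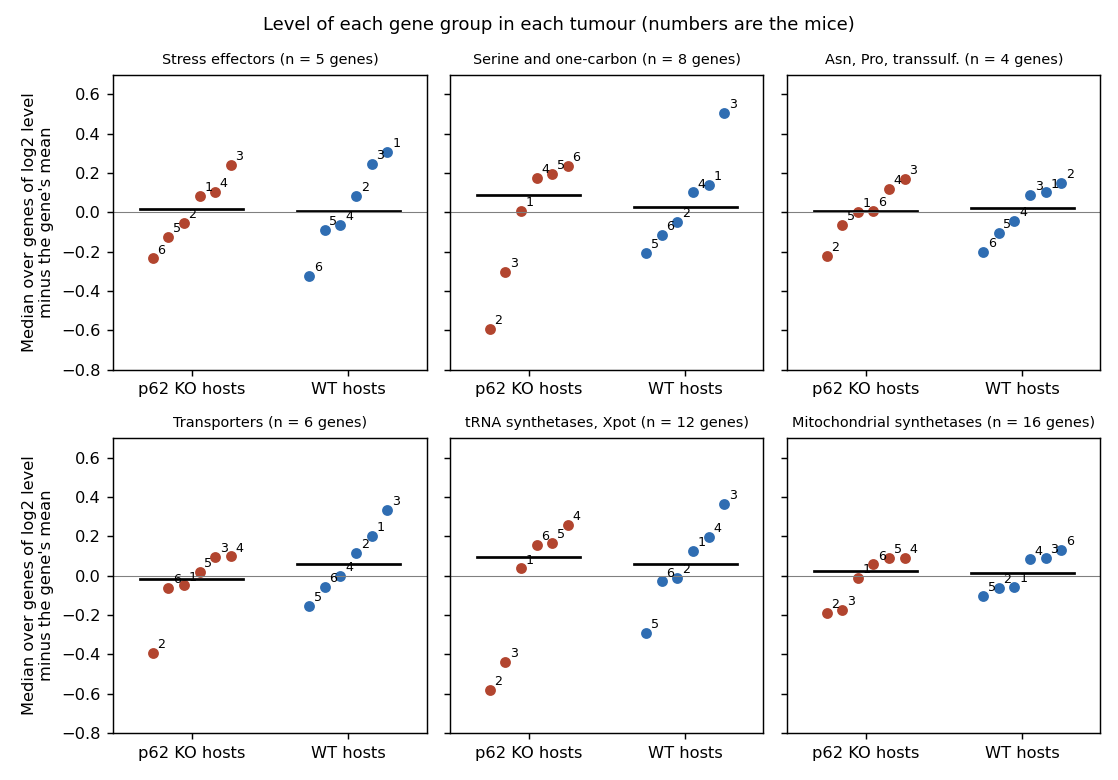
Each point is 1 tumour, with the mouse number beside it, and shows the median over the genes of a group of the log2 level minus the gene's mean; black lines are group medians. In the synthetase and serine panels p62 KO hosts 2 and 3 lie below the rest, in the stress effector panel they do not, and the 16 mitochondrial synthetases spread less, from -0.19 to 0.13. These 16 genes are also dimmer than the synthetase group, and the part of brightness was not tested.

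Over the 35 genes, p62 KO host 2 was the lowest tumour in 22, or 62.9%, against 12.6% of all probe sets, and WT host 3 was the highest in 21, or 60.0%, against 9.65%. p62 KO host 3 was lowest in 4 and highest in 5 (Ddit3, Trib3, Cth, Cbs and Slc6a9). Without p62 KO host 2, 21 of 35 genes had a difference below 0 with a median of -0.02, and without p62 KO host 3, 29 with a median of -0.08. Without WT host 3 there were 26 with a median of -0.04, and with each of the other 9 tumours left out there were between 28 and 32. Without both p62 KO hosts 2 and 3, 15 of 35 were below 0, with a median of 0.02, against 54.5% of all probe sets. When WT hosts 2 and 5 were also left out, 22 of 35 were below 0, with a median of -0.05, against 52.1% of all probe sets.

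The groups parted in these fits. Synthetases went from 12 of 12 below 0 (median -0.14) to 3 of 12 (median 0.13) without p62 KO hosts 2 and 3 and to 6 of 12 (median 0.0006) without the 4 tumours of narrow range. The serine group went from 7 of 8 to 1 of 8 and to 5 of 8. Transporters kept 5 of 6 below 0 in both fits, with medians of -0.12 and -0.16, and stress effectors 4 of 5, with medians of -0.11 and -0.09. The groups also differed in brightness. Mean levels per tumour were 6.97 to 7.65 for stress effectors, 7.72 to 8.43 for transporters and 8.67 to 9.72 for synthetases. The part of brightness in this parting was not tested. The differences between groups of genes were not tested, and 0 of the 35 genes passed in either fit (smallest limma adjusted p = 0.638 and 0.743). Without p62 KO hosts 2 and 3 an unadjusted p under 0.05 was reached by 1 gene on the lower side, Slc7a3, against 4.23% of all probe sets, and by 1 on the higher side, Mthfd1l, against 3.49%. Without the 4 tumours it was reached by 2 on the lower side, Slc7a3 and Slc6a9, against 2.53%, and by Mthfd1l on the higher side, against 2.56%.

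**Figure D4:**
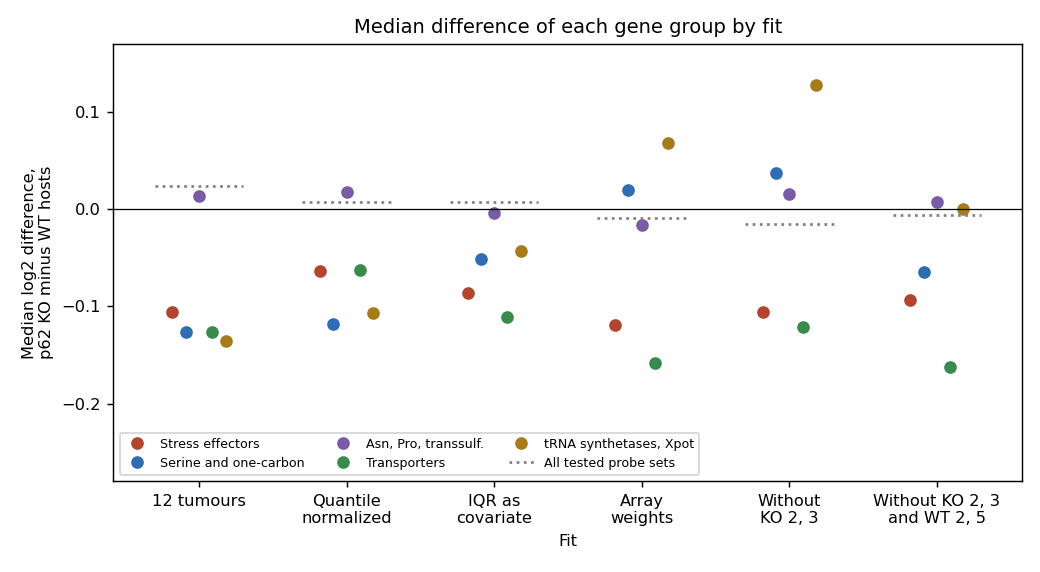
Points give the median log2 difference (p62 KO minus WT hosts) of each gene group under 6 fits, and dotted lines that of all tested probe sets; IQR is the array's interquartile range. Medians of synthetases run from -0.14 over 12 tumours to 0.13 without p62 KO hosts 2 and 3, whereas those of stress effectors and transporters lie below 0 in all 6.

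Differences over all probe sets varied with brightness. The probe sets were divided by mean level into 4 bands of 7048. In the highest band 68.8% had a difference below 0 and the median was -0.07, while in the lowest band it was 31.3% with a median of 0.05. Of the 35 genes, 22 lay in the highest band, 11 in the third, 2 in the second (Slc7a3 and Cth) and 0 in the lowest. The 22 genes of the highest band had a median of -0.14 with 21 below 0, and the 11 of the third band a median of -0.08 with 9 below 0, against -0.07 and 0.02 for all probe sets of those bands.

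In p62 KO host 2 the 22 bright genes lay 0.62 below their means in the median (-0.62), against -0.29 for all probe sets of that band. In p62 KO host 3 they lay at -0.33, against -0.39, and in WT host 3 at 0.37, against 0.14. The 22 genes were thus lower than their band in p62 KO host 2 and not in p62 KO host 3. Without p62 KO hosts 2 and 3 the band as a whole turned to a median of 0.06 and the 22 genes to 0.09, with 7 below 0. The share of all probe sets below 0 went from 68.8% to 31.9% in the highest band. In the third band it went from 43.4% to 47.3%. Of 3 fits that allow for the spread of the arrays, the interquartile range as a covariate left 29 of 35 genes below 0 with a median of -0.07, and so did quantile normalization, which gives all arrays the same spread. Array weights, which counted p62 KO hosts 2 and 3 least (0.195 and 0.138, against 0.745 to 2.51 in the others), left 19 of 35 below 0 with a median of -0.01, and 4 of 12 synthetases with a median of 0.07.

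**Figure D5:**
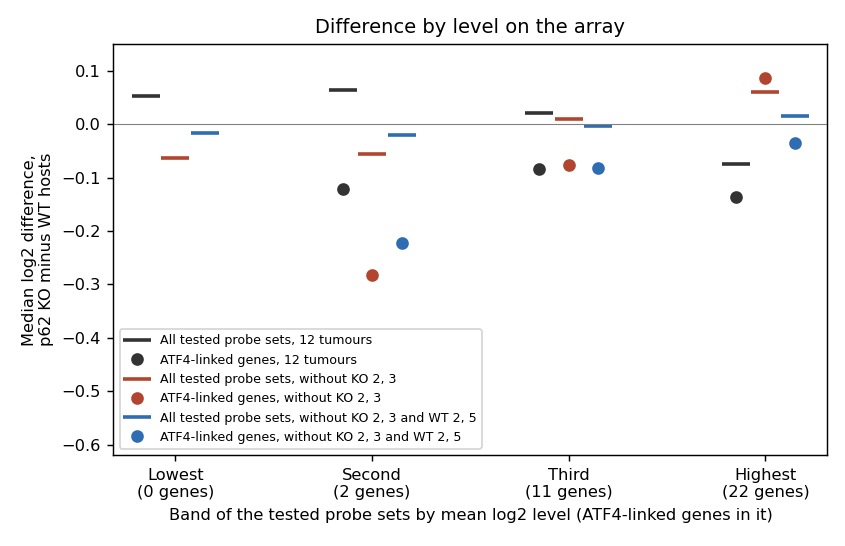
Tested probe sets were divided into 4 bands by mean log2 level (horizontal axis); short lines give the median log2 difference (p62 KO minus WT hosts) of all probe sets of a band and points that of the ATF4-linked genes in it, for 3 sets of tumours. In the highest band both lie below 0 over 12 tumours (-0.07 and -0.14) and above 0 without p62 KO hosts 2 and 3 (0.06 and 0.09).

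Genes with the composite core in the promoter were set beside those without. The 8 measured genes with it had a median difference of -0.17, all 8 below 0. The 20 measured genes with a promoter and no core had a median of -0.10, with 17 below 0. Without KO hosts 2 and 3 the sign turned in Asns (0.14), Iars (0.16), Tars (0.19) and Yars (0.06). Chac1 (-0.14), Trib3 (-0.15), Slc1a4 (-0.15) and Gars (-0.07) stayed below 0. Of genes with a promoter and no core, Phgdh, Psat1, Shmt1, Shmt2, Mthfd1, Mthfd2, Aldh18a1, Slc3a2, Eprs, Mars, Sars and Xpot turned above 0. Cbs turned below 0. The medians and counts are descriptions over genes that share tumours, and the difference between core and no core was not tested.

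Other genes of the pathway were taken from 5 further lists of 76 genes, of which 65 were measured, and 0 passed in either direction. At an unadjusted p under 0.05 there was 1 lower, Slc7a11, and 0 higher, against 1.11% and 1.28% of all probe sets. The cystine importer Slc7a11 ranged from 6.21 to 6.85 (median 6.59) in tumours of p62 KO hosts and from 6.19 to 8.93 (median 7.28) in tumours of WT hosts. WT host 2 was the highest tumour and WT host 5 the lowest, so that the p62 KO tumours lay inside the WT range. Its difference was -0.78 (SE 0.35, unadjusted p = 0.0442, limma adjusted p = 0.9935), and -0.46 without WT host 2.

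Of the eIF2alpha kinases and phosphatase genes, 4 of 6 had differences below 0, against 42.8% of all probe sets. Among them were the kinase of endoplasmic reticulum stress Eif2ak3 (-0.16, SE 0.15) and the amino acid sensor Eif2ak4 (-0.19, SE 0.13). The level of this list was -0.45 in p62 KO host 3 and -0.42 in p62 KO host 2, and between -0.12 and 0.27 in the others. Without these tumours the difference of Eif2ak3 turned above 0. ATF4 partners and further targets had 18 of 23 below 0 with a median of -0.11, against the same share. Their level was lowest in p62 KO host 2 (-0.31) and p62 KO host 3 (-0.14). The stress-induced factors Atf3 and Cebpb were on the other side, at 0.25 (SE 0.17) and 0.26 (SE 0.18), and the mTORC1 inhibitor Ddit4 was at 0.03 (SE 0.10). Different tumours carried the first of these differences. Cebpb was highest in p62 KO hosts 3 and 2, at 8.39 and 8.24, against 7.23 to 7.92 in the others. Atf3 was highest in p62 KO hosts 4, 5 and 6, at 8.52 to 8.69, against 7.74 to 8.24 in the others. None of Eif2ak3, Eif2ak4, Atf3, Cebpb and Ddit4 passed (limma adjusted p = 0.9935 each).

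Cytosolic synthetases and their scaffold genes outside the list above had 8 of 10 differences below 0, with a median of -0.08. Over all probe sets 42.8% were below 0. The count of 8 is over all 12 tumours, including p62 KO hosts 2 and 3. Their level per tumour was lowest in p62 KO host 3 (-0.57), p62 KO host 2 (-0.37) and WT host 5 (-0.34), and highest in WT host 3 (0.48). It lay between 0.06 and 0.25 in p62 KO hosts 1, 4, 5 and 6. In WT hosts 1, 2, 4 and 6 it lay between -0.01 and 0.10. The mitochondrial synthetases, which charge tRNA inside that organelle, had 8 of 16 below 0, with a median of -0.01. Their probe sets also varied less over the 12 tumours. The median range was 0.64 log2 units, against 1.07 for the 12 genes of cytosolic charging and export and 0.79 for all probe sets. The mitochondrial genes were also dimmer, with mean levels of 6.85 to 7.19 in tumours of p62 KO hosts against 8.67 to 9.56. In p62 KO hosts 2 and 3, all probe sets had medians of 0.01 and 0.02 in the third band and -0.29 and -0.39 in the highest. The part of brightness in the smaller range was not tested.

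Levels of marker genes of other cells also varied among these tumours. The 7 neutrophil markers all had differences above 0, with mean levels of 5.54 to 6.33 in tumours of p62 KO hosts and 5.36 to 5.87 in those of WT hosts, and their level per tumour was highest in p62 KO hosts 3 and 2 (0.52 and 0.48). Of these 7 markers, 4 had an unadjusted p under 0.05 (limma) on the higher side, against 1.28% of all probe sets. The 5 adipocyte markers were all above 0 too, with mean levels of 6.58 to 6.99 and 5.67 to 6.62. Lep, which encodes leptin, did not overlap between the groups, as was so in 0.145% of all probe sets. Its values of 4.38 to 5.21 were near the lower quartiles of the arrays. Differences were above 0 in 8 of 9 macrophage markers (mean levels 9.22 to 9.92 and 9.15 to 9.93), 3 of 3 B cell markers (5.04 to 5.46 and 4.79 to 5.19) and 5 of 5 of skeletal muscle (5.70 to 6.15 and 5.62 to 5.80). Of all probe sets, 42.8% were below 0. The muscle level per tumour was 0.36 in p62 KO host 3 and 0.21 in p62 KO host 2, and between -0.17 and 0.05 in the others. Dim probe sets as a whole were also raised in these tumours. Their medians in p62 KO hosts 3 and 2 were 0.32 and 0.19 in the lowest band and 0.30 and 0.22 in the second. In the third band they were 0.02 and 0.01. Whether the muscle and neutrophil levels exceed those of probe sets of like brightness was not tested. Cd79a, a B cell receptor component, differed by 0.63 (SE 0.13, unadjusted p = 0.00022) and did not pass (limma adjusted p = 0.9935). Its means of 5.05 and 4.42 were near the lower quartiles of the arrays. The other B cell markers, Cd79b and Ms4a1, differed by 0.08 and 0.11. In p62 KO host 3 endothelial markers lay at -0.79 and macrophage markers at -0.35. The 9 measured genes of dividing cells were lowest in p62 KO host 3 (-0.51), p62 KO host 2 (-0.17) and WT host 5 (-0.17) and highest in WT host 3 (0.34), the tumours at the ends of the synthetase order. These 9 genes all lie in the highest band of brightness. All probe sets of that band had medians of -0.39, -0.29, -0.08 and 0.14 in the same tumours, so the order is not particular to genes of dividing cells. Fibroblast markers had mean levels of 8.89 to 9.55 and 9.17 to 9.50, with 6 of 10 below 0 and p62 KO host 3 lowest at -0.42. The part of these cells in the levels of the amino acid genes was not tested.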

How the data were processed

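Whole tumours from 12 mice, 6 per host genotype, were profiled on single-colour arrays. Total RNA (TRIzol) was amplified by Ovation Pico WTA and biotinylated, per the labels' protocols. The authors deposited log2 intensities for 34760 probe sets, with RMA, in no stated version, named in the submitters' processing notes. Controls were taken to be the 6568 rows of lowest identifier, none with a gene, which left 28192. The test was limma (3.58.1, R 4.3.3), fitting host genotype alone by lmFit with eBayes, two-sided, with Benjamini-Hochberg adjustment over all tested probe sets, and it was first tested on simulated data. The exact permutation test used all 924 assignments of the tumours. The precision is limited by the number of arrays, 1 per tumour. Whether tumours of a group shared a litter or day is not given. The members, gene lists and alternatives were chosen with earlier results of these data known. All members are named. Ranges are given for preset anchors and for the member with the largest difference of each group. Those of Sesn2, Mthfd1l, Slc1a4, Gars, Cbs and Cth were added after their values were seen. Other pathway genes are named if preset or with an unadjusted p under 0.05. Alternatives covered scaling, a filter on dim probe sets (mean at or above the median), all rows, averaging a gene's probe sets, trended and robust eBayes, array weights, a block for mouse number, the interquartile range as a covariate and tumours left out. Symbols came from the platform annotation and promoters from RefSeq, and 1 gene is not reported in the promoter search. Plots were drawn with matplotlib 3.10.9.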

Additional observations from a re-analysis of the deposited data

Results flagged for a closer look

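In 82 groups of 6 values, those of the named genes in each host genotype, 2 tumours lay far from the other 5 of their group, where chance gives about 1 in 20 groups. Slc7a1, the arginine and lysine carrier, was at 7.95 in p62 KO host 2 and between 8.36 and 8.56 in the other 5 p62 KO tumours. Iars, the isoleucyl synthetase, was at 10.49 in WT host 5 and between 10.96 and 11.19 in the other 5 WT tumours. Both tumours are among the 4 with the narrowest interquartile ranges.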

How the results depend on the processing

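In every alternative run 0 members were called higher and 0 lower. Shifts of the group medians were below 1 SD between tumours (0.22 over the 35 genes, 0.30 for synthetases), an SD that includes KO hosts 2 and 3, so it does not show that directions held. The median over the 35 genes, -0.11 with 31 below 0, became -0.07 with 29 under quantile normalization, -0.01 with 19 under array weights and 0.02 with 15 without KO hosts 2 and 3. That of the synthetases, -0.14, became 0.07 under array weights and 0.13 without these tumours, and that of the serine group, -0.13, became 0.02 and 0.04. Directions of single genes were less steady, with none passing in either fit. Without KO hosts 2 and 3 the sign turned in Phgdh (0.11), Psat1 (0.20), Shmt1 (0.020), Shmt2 (0.012), Mthfd1 (0.053), Mthfd2 (0.0024), Asns (0.14), Aldh18a1 (0.16), Cth (-0.14), Cbs (-0.11), Slc3a2 (0.20), Eprs (0.13), Iars (0.16), Lars (0.042), Mars (0.13), Sars (0.24), Tars (0.19), Wars (0.19), Yars (0.062), Xpot (0.20), Eif2ak3 (0.052) and Ddit4 (-0.063). Without these and WT hosts 2 and 5 it turned in Phgdh (0.043), Psat1 (0.086), Asns (0.034), Aldh18a1 (0.10), Cth (-0.019), Cbs (-0.051), Slc3a2 (0.11), Eprs (0.066), Iars (0.051), Mars (0.045), Sars (0.11), Wars (0.037), Xpot (0.083) and Ddit4 (-0.039). Array weights, which were 0.195 and 0.138 for KO hosts 2 and 3, turned Ddit3 (-0.011), Phgdh (0.085), Psat1 (0.11), Shmt1 (0.0004), Mthfd1 (0.039), Asns (0.030), Aldh18a1 (0.092), Cth (-0.062), Cbs (-0.073), Slc3a2 (0.13), Eprs (0.068), Iars (0.068), Mars (0.090), Sars (0.15), Tars (0.085), Wars (0.12), Yars (0.0044), Xpot (0.13) and Ddit4 (-0.058). The interquartile range as a covariate turned Aldh18a1 (0.036), Cth (-0.020), Mars (0.023) and Sars (0.072), quantile normalization Aldh18a1 (0.033) and Sars (0.058), and equal array medians Ddit4 (-0.0009). The cause of these turns was not tested.

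With each tumour left out in turn, differences ranged from -0.13 to 0.0065 in Trib3, -0.21 to 0.074 in Psat1, -0.091 to 0.033 in Mthfd1, -0.11 to 0.099 in Aldh18a1, -0.073 to 0.14 in Cth, -0.022 to 0.11 in Cbs, -0.22 to 0.048 in Slc3a2, -0.13 to 0.013 in Eprs, -0.29 to 0.0086 in Iars, -0.082 to 0.048 in Mars, -0.093 to 0.11 in Sars, -0.30 to 0.020 in Tars, -0.24 to 0.0049 in Wars, -0.25 to 0.019 in Xpot and -0.030 to 0.068 in Ddit4. The median over the 35 genes ranged from -0.17 to -0.02. The mouse number as a replicate block gave 0 calls and the same median of -0.11. The labels do not say that mouse numbers pair tumours, and correlations of same-numbered deviations ran from -0.549 to 0.369, with 0 of 6 tumours closest to its own number.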

Other observations

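The folate and glycine genes outside the members, 10 of 17 measured, had 6 differences below 0 with a median of -0.02, and 0 passed. Mthfd2l, a mitochondrial relative of Mthfd2, had the largest, at -0.42 (SE 0.21, unadjusted p = 0.0699, limma adjusted p = 0.9935), and was named after its value was seen. It ranged from 7.58 to 8.81 (median 8.67) in tumours of p62 KO hosts and from 8.48 to 9.15 (median 8.86) in tumours of WT hosts, again with p62 KO host 2 lowest and WT host 3 highest. Vldlr, a lipoprotein receptor that ATF4 induces, differed by -0.36 (SE 0.30) and was likewise named after its value was seen.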
